A study of Homo sapiens with 101 samples.

Results

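The MYC, MAX and MXD network was followed as 8 genes: MYC, MAX, MXD1, MXD3, MXD4, MXI1, MNT and MLX. Members were chosen by gene symbol, as the probe sets that the array platform assigns to these genes, with 1 probe set per gene, the one with the highest mean over all arrays. Of the 8 genes named, 7 were measured, out of 19775 genes in all. The 3 probe sets of MXD4 also carry the symbol of a microRNA gene, so no value is given for MXD4. The arrays came from SW480 and SW620, established human colorectal adenocarcinoma cell lines from the primary tumour and from a later lymph node metastasis of the same patient. Each line was studied with a short hairpin RNA against CDK5, HRAS, MAP2K1, MAP2K2, MAPK3 or NGFR, with an empty vector, with a non-target hairpin and without transduction. The study asked which genes respond when each of these RAS pathway genes is knocked down. There were 101 arrays in 18 groups, with 6 arrays in most groups, 5 in CDK5 knockdown SW620, which has no replicate 1, and 3 in each non-transduced group. Replicate 2 carries no hairpin code in the labels, each gene but HRAS has a single code on its other arrays, and HRAS has one code in replicate 1 and another in replicates 3 to 6. The labels give no time after transduction.

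MYC is a transcription factor that binds DNA as a heterodimer with MAX and drives genes of ribosome production, nucleotide synthesis and cell cycle entry. The MXD proteins (MXD1, MXD3, MXD4), MXI1 and MNT compete with MYC for MAX and recruit SIN3 corepressors to the same sites, and MLX is a MAX-like partner for MNT, some MXD proteins and the glucose-responsive factors MLXIP (MondoA) and MLXIPL (ChREBP). In colorectal epithelium MYC is a target of WNT signalling, and ERK, the kinase downstream of RAS and MEK, is known to stabilise the MYC protein. The arrays measure RNA and do not report protein.

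MYC and its partners bind the E-box, whose core letters are CACGTG, a sequence that reads the same on both strands. The 250 bases upstream of each RefSeq start site were searched for it on the GRCh38.p14 assembly, and 7 of the 8 members, MYC being the other one, had such a window, 10 windows in all. Among all 35116 windows in the table, 6.34% held CACGTG. It was found in 3 of the members with a window, MNT, MLX and MXD4. The windows of the 2 members with the most changes below, MXI1 (at the first of its 3 start sites) and MXD1, are printed beside those of MNT and MLX, with CACGTG in capitals and the rest in lower case, 5′ to 3′ on the strand of the gene, so that the letters can be compared.
MXI1, chr10:110207355-110207604, plus strand: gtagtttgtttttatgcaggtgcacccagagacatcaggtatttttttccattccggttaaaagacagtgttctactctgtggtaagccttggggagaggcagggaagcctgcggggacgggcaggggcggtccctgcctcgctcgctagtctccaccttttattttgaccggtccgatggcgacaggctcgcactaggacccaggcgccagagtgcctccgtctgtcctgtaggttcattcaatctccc
MXD1, chr2:69914859-69915108, plus strand: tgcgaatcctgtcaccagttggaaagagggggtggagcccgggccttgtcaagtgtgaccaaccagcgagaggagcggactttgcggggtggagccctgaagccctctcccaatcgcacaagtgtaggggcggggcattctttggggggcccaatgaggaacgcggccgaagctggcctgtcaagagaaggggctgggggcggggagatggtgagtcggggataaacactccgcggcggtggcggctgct
MNT, chr17:2401061-2401310, minus strand: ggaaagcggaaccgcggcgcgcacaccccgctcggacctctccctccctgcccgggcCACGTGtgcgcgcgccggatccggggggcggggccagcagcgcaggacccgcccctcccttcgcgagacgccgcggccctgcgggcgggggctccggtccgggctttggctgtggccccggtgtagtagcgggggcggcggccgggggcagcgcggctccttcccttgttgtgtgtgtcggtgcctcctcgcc
MLX, chr17:42566850-42567099, plus strand: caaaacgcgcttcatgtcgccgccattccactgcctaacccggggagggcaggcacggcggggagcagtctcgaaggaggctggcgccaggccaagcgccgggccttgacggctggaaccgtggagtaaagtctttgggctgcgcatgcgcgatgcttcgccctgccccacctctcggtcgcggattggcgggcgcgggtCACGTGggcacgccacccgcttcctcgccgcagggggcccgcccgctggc
In MNT the E-box letters begin at position -193 from the start site and in MLX at -50. MXI1 and MXD1 hold none in the windows searched, including the other start sites of MXI1, which says only that these letters are absent from those bases.

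All levels below are log2 values that the authors made with RMA, a method that corrects background, normalises between arrays and summarises the probes of a probe set, so a difference of 1 is a doubling. Levels of different probe sets were not compared with each other. For each line, limma set every knockdown against its vector controls (the average of empty vector and non-target hairpin), with a term for the label series (replicate 1, replicate 2, replicates 3 to 6 or replicate 7). A gene is called when its Benjamini-Hochberg adjusted p over the 19775 genes of a comparison is under 0.05. All tests are two-sided, and errors are standard errors of the fitted difference unless marked SD. The labels number the arrays as biological replicates and do not say whether replicates 3 to 6 are separate cultures. The endings of their source names may mark pairs of arrays from the same culture. The p-values may thus measure only the spread between these arrays. With arrays averaged in such pairs, member calls fell from 6 to 3 of 42 in SW480 and from 14 to 8 in SW620. For differences between lines they fell from 15 to 1. In RNA from whole cultures, fewer cells of a type and less RNA per cell cannot be told apart.

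Of the 12 knockdowns, 11 lowered the RNA of their own target, with log2 differences from -0.32 (MAPK3 in SW480) to -3.43 (NGFR in SW480), and NGFR in SW620 was the exception (-0.52 ± 0.26, limma adjusted p = 0.136). The epithelial markers EPCAM, KRT8, KRT18 and KRT19 lay above the array median on all 101 arrays. CDX2, an intestinal transcription factor, did so on 65. Of the 7 markers of leukocytes, endothelium and fibroblasts, PTPRC, CDH5, COL1A2 and COL3A1 lay above it on 0 arrays, CD3E on 19, PECAM1 on 41 and COL1A1 on 101. On 3 SW620 arrays the 3′ probe set of GAPDH exceeded the 5′ one by over 2, a sign of degraded RNA (replicate 2 of MAP2K1 by 6.04, replicate 1 of NGFR by 3.82 and replicate 2 of MAPK3 by 2.95), against at most 1.47 elsewhere. Replicate 1 of the MAP2K2, MAPK3 and MAP2K1 knockdowns of SW480 stood apart from their line: on an index over 100 genes that is 0 for SW480 and 1 for SW620 vector controls, these arrays had 0.76, 0.60 and 0.39. Member values whose call changed when either set of 3 arrays was left out are given below beside the value from all arrays. The fit estimates 1 spread over all groups, so an adjusted p can change in a group that holds none of these arrays.

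Against the vector controls, MXI1 was called lower in all 6 knockdowns of SW620 and MXD1 higher in 5 of 6 knockdowns of SW480. MYC was called lower in 3 of 6 knockdowns of SW620 and in none of SW480. Against the non-transduced cells of SW620, neither MXI1 nor MYC was called in any of the 6. On a further probe set, MXD1 in SW480 was called in MAPK3 and NGFR alone. In SW480, 6 of 42 tests of a member in a knockdown were called (14.3%), all of them higher. The share of all genes called in SW480 was 8.06% in the CDK5 knockdown, 26.2% in HRAS, 6.54% in MAP2K1, 5.17% in MAP2K2, 10.7% in MAPK3 and 24% in NGFR, so the members' share was near the mean of these (13.4%). In SW620, 14 of 42 were called (33.3%), 2 higher and 12 lower, where 24% of all genes were called in the CDK5 knockdown, 31% in HRAS, 19.1% in MAP2K1, 23.2% in MAP2K2, 29.8% in MAPK3 and 26.3% in NGFR (mean 25.6%). The median over the 7 members lay between -0.10 and 0.09 in the 6 knockdowns of SW480 and between -0.28 and 0.02 in SW620, against -0.02 to 0.02 and -0.01 to 0.01 over all genes.

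**Figure D1:**
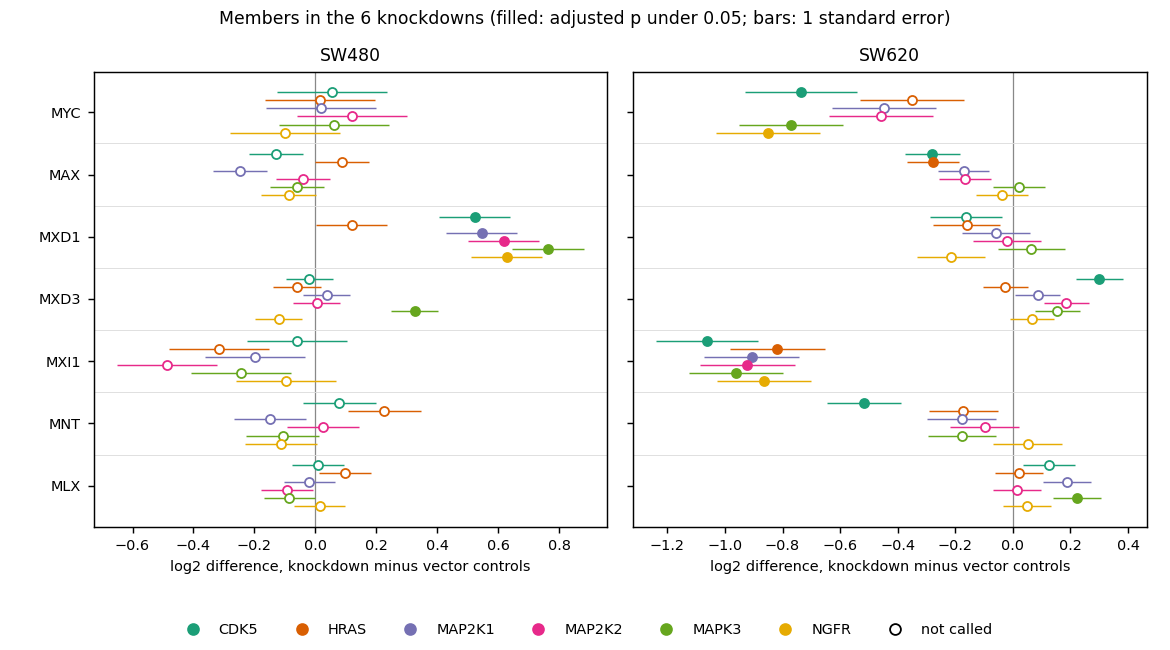
Fitted log2 difference of each member from the vector controls in the 6 knockdowns, SW480 on the left and SW620 on the right, with bars of 1 standard error and filled points for an adjusted p under 0.05. MXI1 lies between -0.82 and -1.06 in SW620 with all 6 points filled, and MXD1 has 5 filled points between 0.52 and 0.76 in SW480.

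MYC itself was measured by 1 probe set. Its vector controls in SW620 ran from 11.96 over a median of 11.99 to 12.62 with the empty vector and from 11.89 over 11.93 to 12.31 with the non-target hairpin. The 5 arrays of CDK5 knockdown SW620 had MYC levels of 11.26, 11.40, 11.41, 11.36 and 11.34 (replicates 2 to 6). All of these lay below every vector control array of the line. MAPK3 knockdown SW620 ran from 10.94 over a median of 11.08 to 11.998, with replicates 3 to 6 at the bottom and replicate 1 at the top. NGFR knockdown SW620 ran from 9.21 over 11.62 to 11.72, and its lowest array was replicate 1, one of the arrays with degraded RNA. HRAS knockdown SW620 ran from 11.42 over 11.76 to 11.85, MAP2K1 from 11.46 over 11.53 to 11.92, and MAP2K2 from 11.45 over 11.50 to 12.20. Every array of HRAS lay below all SW620 vector control arrays, and 5 of 6 did in MAP2K1 and in MAP2K2.

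MYC was called lower in the CDK5 (-0.74 ± 0.19, adjusted p = 0.00266), MAPK3 (-0.77 ± 0.18, 0.000529) and NGFR (-0.85 ± 0.18, 0.000176) knockdowns of SW620 by limma. Those levels correspond to 60.04%, 58.7% and 55.4% of the vector controls. The share of all genes called lower was 13.4% in the CDK5 knockdown, 16.8% in HRAS, 9.28% in MAP2K1, 12.7% in MAP2K2, 15.9% in MAPK3 and 13.4% in NGFR. The differences in HRAS (-0.35 ± 0.18, adjusted p = 0.139), MAP2K1 (-0.45 ± 0.18, 0.071) and MAP2K2 (-0.46 ± 0.18, 0.0554) did not pass. Without the arrays of degraded RNA all 6 passed, at -0.68 (CDK5), -0.35 (HRAS), -0.46 (MAP2K1), -0.46 (MAP2K2), -0.83 (MAPK3) and -0.41 (NGFR), with limma adjusted p from 2.09e-06 to 0.0282. The NGFR value thus moved from -0.85 to -0.41 when replicate 1 was left out with the other degraded arrays. Without the SW480 arrays that stood apart, MAP2K2 passed as well (-0.46, limma adjusted p = 0.0463). Against the non-transduced cells of SW620 none of the 6 was called, and the CDK5 (-0.42 ± 0.32, adjusted p = 0.558), MAPK3 (-0.46 ± 0.30, 0.346) and NGFR (-0.54 ± 0.30, 0.306) values were smaller than against the vector controls by limma. Within label series, MYC in the NGFR knockdown was -3.16 from the controls in replicate 1, -0.77 in replicate 2 and -0.30 in replicates 3 to 6. In MAPK3 the order was the opposite, -0.37, -0.55 and -0.92, and in HRAS it was -0.95, -0.52 and -0.16.

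**Figure D2:**
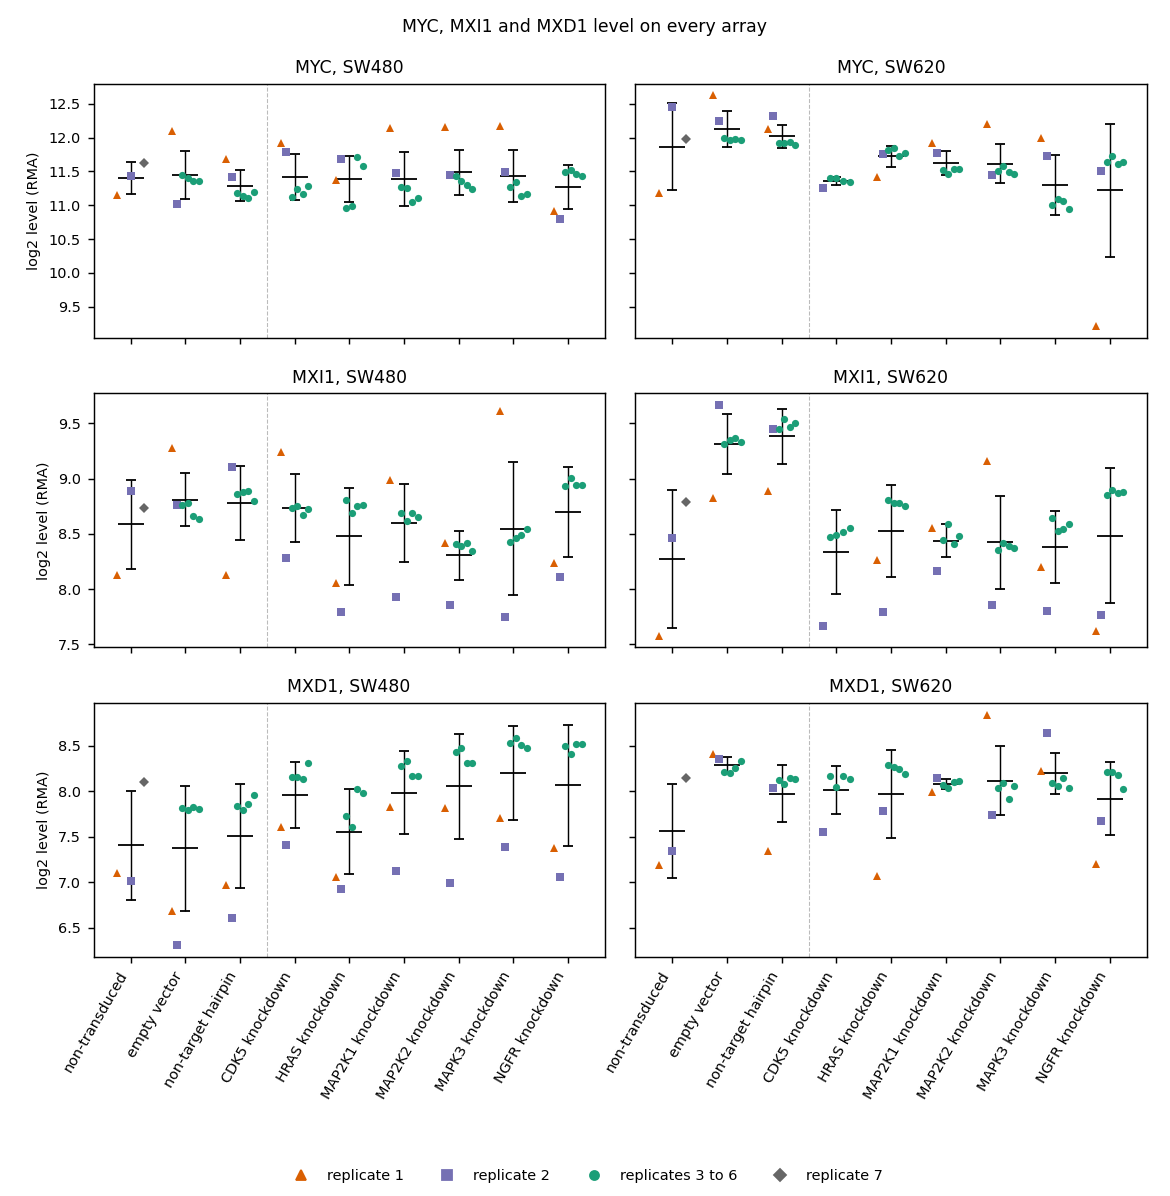
Log2 level of MYC, MXI1 and MXD1 on every array of the 9 treatments, SW480 on the left and SW620 on the right, with the mean and SD of each group in black and the label series by marker. In SW620 the 12 vector control arrays of MXI1 sit between 8.83 and 9.67, above the 3 non-transduced arrays, and in SW480 the MXD1 levels of replicates 1 and 2 sit below those of replicates 3 to 6 in every knockdown and vector control group.

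In SW480, MYC ranged from a group mean of 11.27 ± 0.32 (SD, n = 6, NGFR knockdown) to 11.49 ± 0.34 (SD, n = 6, MAP2K2 knockdown), and no knockdown was called. The fitted differences ran from -0.10 ± 0.18 (NGFR) to 0.12 ± 0.18 (MAP2K2), and the 95% interval of the MAP2K2 difference runs from -0.24 to 0.48. The HRAS arrays of SW480 were spread widely even within a label series, with MYC at 10.95 and 10.99 in replicates 3 and 4 against 11.71 and 11.59 in replicates 5 and 6. The difference of the GAPDH probe sets split the same arrays, at 1.39 and 1.47 in replicates 3 and 4 against 0.41 and 0.32 in replicates 5 and 6, and its part in the MYC levels was not tested. Over the 18 groups ordered by mean level, from empty vector SW620 (12.13 ± 0.27, SD, n = 6) to NGFR knockdown SW620 (11.22 ± 0.99, SD, n = 6), none of the 17 pairs of neighbours differed by more than the larger SD of the pair. The knockdown difference itself differed between SW620 and SW480 for CDK5 (-0.79 ± 0.27, adjusted p = 0.0305), MAPK3 (-0.83 ± 0.26, 0.0161) and NGFR (-0.75 ± 0.26, 0.0231). Of 20 alternative settings, 11 kept the CDK5 call, 12 the MAPK3 call and 9 the NGFR call. With the empty vector alone as control, CDK5 (limma adjusted p = 0.082), MAPK3 (0.0571) and NGFR (0.08) did not pass. With the non-target hairpin alone, CDK5 (0.0758) and NGFR (0.0523) did not. Without the degraded arrays the NGFR value was -0.31 (limma adjusted p = 0.257), and without the SW480 arrays that stood apart the MAPK3 value was -0.72 (0.0509). The MAP2K2 value (-0.58 ± 0.26, adjusted p = 0.138) passed without the degraded arrays (-0.58, 0.0224).

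MXI1, an MXD-family antagonist of MYC, was the member called in the most knockdowns. On the vector control arrays of SW620 it ran from 8.83 over a median of 9.34 to 9.67 (empty vector) and from 8.88 over 9.46 to 9.54 (non-target hairpin). CDK5 knockdown SW620 had 7.66, 8.47, 8.49, 8.51 and 8.55 in replicates 2 to 6. The other knockdowns of SW620 had a lowest, median and highest MXI1 level of 7.79, 8.76 and 8.80 for HRAS, 8.16, 8.46 and 8.59 for MAP2K1, and 7.85, 8.38 and 9.16 for MAP2K2. For MAPK3 they were 7.80, 8.53 and 8.64, and for NGFR 7.62, 8.86 and 8.90. Replicate 2 was the lowest or next to lowest array in each of these groups. In CDK5, HRAS, MAP2K1 and MAPK3 every array lay below all SW620 vector controls, in MAP2K2 replicate 1 overlapped them, and in NGFR 4 of 6 arrays overlapped them, although each lay below the controls of its own label series.

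The fitted falls of MXI1 in SW620 were -1.06 ± 0.18 (CDK5, limma adjusted p = 1.8e-06), -0.82 ± 0.16 (HRAS, 3.79e-05), -0.91 ± 0.16 (MAP2K1, 1.91e-05), -0.92 ± 0.16 (MAP2K2, 9.83e-06), -0.96 ± 0.16 (MAPK3, 2.36e-06) and -0.86 ± 0.16 (NGFR, 2.86e-05). The level was thus 47.9% to 56.7% of the vector controls. These 6 comparisons share their 12 control arrays, so they are not independent of each other. Within label series the difference in replicate 2 was -1.39 to -1.89, in replicates 3 to 6 it was -0.54 to -1.03, and in replicate 1 it was -1.23 to 0.31, with MAP2K2 the single positive value. The range over the 20 alternative settings that kept the vector controls was -1.17 to -0.54 over the 6 knockdowns, all of them called.

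**Figure D3:**
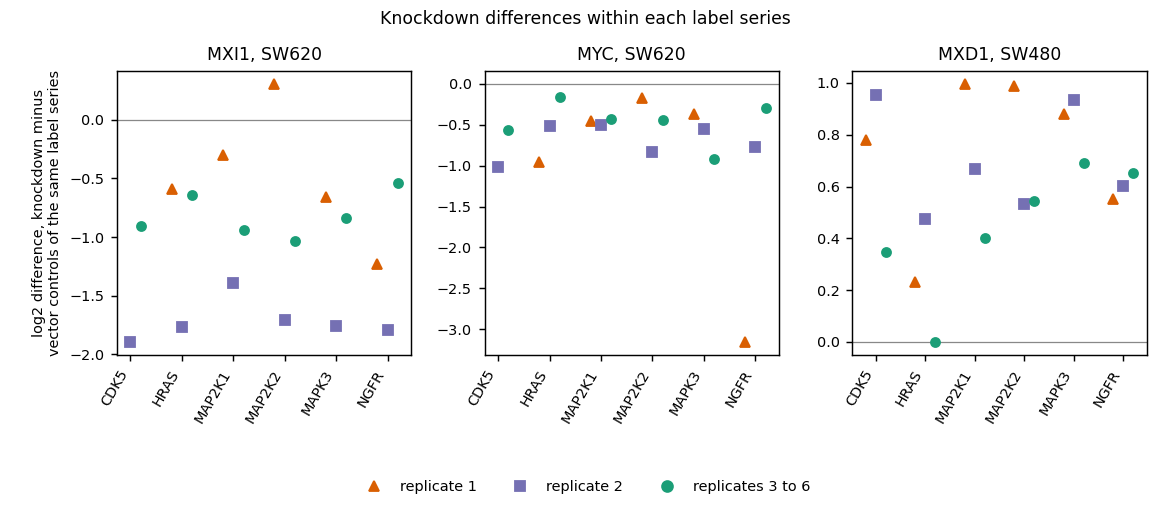
Log2 difference of MXI1 and MYC in SW620 and of MXD1 in SW480 from the vector controls of the same label series, 1 marker for each knockdown and series. In SW620, MXI1 has 16 of 17 markers below 0 and MYC has 17 of 17. In SW480, MXD1 has 18 of 18 above 0, the lowest at 0.00059 (HRAS, replicates 3 to 6). The knockdowns of a series share its control arrays, so the markers are not independent of each other.

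The level of MXI1 in the vector controls of SW620 also stood above that in non-transduced cells, whose 3 arrays had 7.58, 8.46 and 8.78 (replicates 1, 2 and 7). All 3 lay below the 12 vector control arrays. The fitted difference, vector controls minus non-transduced, was 1.03 ± 0.26 (limma adjusted p = 0.00939), and 5.88% of all genes were called in that comparison. Against the non-transduced cells, the knockdowns of SW620 gave MXI1 differences of -0.03 ± 0.29 (CDK5) to 0.21 ± 0.28 (HRAS), and MXI1 was called in none of the 6, with the smallest unadjusted p at 0.451. The shares of all genes called against non-transduced cells were 1.28% (CDK5), 6.04% (HRAS), 1.49% (MAP2K1), 0.774% (MAP2K2), 9.88% (MAPK3) and 4.91% (NGFR). The members called there were MXD1 in MAPK3 (0.79 ± 0.20, adjusted p = 0.00549) and MXD3 in HRAS (-0.43 ± 0.13, 0.0341), 2 of 42. With the term for label series these comparisons rest on replicates 1 and 2 of the non-transduced cells, because replicate 7 holds no other treatment, and the intervals are wide. The 95% interval for MXI1 in the CDK5 knockdown runs from -0.61 to 0.54.

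In SW480, MXI1 was called in no knockdown. The differences ran from -0.49 ± 0.16 (MAP2K2, adjusted p = 0.064) to -0.06 ± 0.16 (CDK5, 0.894), and the label series disagreed. Replicate 2 gave -0.65 to -1.19 in all 6, replicates 3 to 6 gave -0.39 to 0.18, and replicate 1 gave 0.54 in CDK5, 0.29 in MAP2K1 and 0.91 in MAPK3 but -0.64 in HRAS, -0.29 in MAP2K2 and -0.46 in NGFR. Without the degraded arrays MAP2K2 passed (-0.49, limma adjusted p = 0.0377). Without the SW480 arrays that stood apart, MXI1 passed in MAP2K2 (-0.55, limma adjusted p = 0.0335) and MAPK3 (-0.50, 0.0303). On all arrays the MAPK3 value was -0.25 ± 0.16 (limma adjusted p = 0.409). The knockdown difference was more negative in SW620 than in SW480 for CDK5 (-1.003 ± 0.24, adjusted p = 0.00197), MAP2K1 (-0.71 ± 0.23, 0.0321), MAPK3 (-0.72 ± 0.23, 0.0227) and NGFR (-0.77 ± 0.23, 0.00956). For HRAS (-0.50 ± 0.23, 0.119) and MAP2K2 (-0.44 ± 0.23, 0.234) it did not pass. Without the SW480 arrays that stood apart, MAP2K1 (-0.59, 0.0716) and MAPK3 (-0.46, 0.156) did not pass either. Ordered by mean, MXI1 was highest in non-target hairpin SW620 (9.38 ± 0.25, SD, n = 6) and empty vector SW620 (9.31 ± 0.27, SD, n = 6), and the step from these to empty vector SW480 (8.81 ± 0.24, SD, n = 6) was the single one of 17 larger than the larger SD of its pair.

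MXD1, the founding antagonist of the family, which accompanies differentiation, was called in 5 knockdowns of SW480, where MXD3 was the other member called, in 1. Its vector controls in that line ran from 6.31 over a median of 7.80 to 7.83 (empty vector) and from 6.60 over 7.82 to 7.96 (non-target hairpin), with replicates 1 and 2 low in both. CDK5 knockdown SW480 ran from 7.41 over 8.14 to 8.31, MAP2K1 from 7.13 over 8.17 to 8.33, and MAP2K2 from 6.99 over 8.31 to 8.48. MAPK3 knockdown SW480 ran from 7.39 over 8.50 to 8.59 and NGFR from 7.06 over 8.46 to 8.52. In these 5 groups each array lay above all vector controls of its own label series, and 4 of 6 lay above every vector control of the line. HRAS knockdown SW480 ran from 6.93 over 7.67 to 8.02 and, within replicates 3 to 6, lay below all controls of the series on 2 arrays and above them on the other two.

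The rise of MXD1 in SW480 was 0.52 ± 0.12 in CDK5 (limma adjusted p = 0.00115), 0.54 ± 0.12 in MAP2K1 (0.000848), 0.62 ± 0.12 in MAP2K2 (0.000207), 0.76 ± 0.12 in MAPK3 (7.06e-07) and 0.63 ± 0.12 in NGFR (1.54e-05), and the HRAS value was 0.12 ± 0.12 (0.497). That is 144% to 170% of the control level in the 5 called groups. Fitted with label series, the MXD1 level in SW480 was 7.37 with empty vector, 7.50 with non-target hairpin and 7.72 in non-transduced cells. It was 7.96 (CDK5) to 8.20 (MAPK3) in these 5 knockdowns, so the gap to non-transduced cells was smaller. The knockdowns of SW480 were not tested against non-transduced cells. The share of all genes called higher in SW480 was 4.15% (CDK5), 9.97% (HRAS), 3.2% (MAP2K1), 2.07% (MAP2K2), 4.21% (MAPK3) and 13.1% (NGFR). Within label series the 5 knockdowns gave 0.55 to 1.00 in replicate 1, 0.53 to 0.95 in replicate 2 and 0.35 to 0.69 in replicates 3 to 6. A further probe set of MXD1 gave 0.76 in MAPK3 (adjusted p = 0.000611) and 0.64 in NGFR (0.00198), but 0.20 in CDK5 (0.555), 0.45 in MAP2K1 (0.0981) and 0.45 in MAP2K2 (0.108). The remaining one, whose mean level of 4.61 lay below the median of every array, gave -0.18 to 0.25 in these 5, none called by limma.

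In SW620, MXD1 differed from the vector controls by -0.22 ± 0.12 (NGFR) to 0.06 ± 0.12 (MAPK3), none called, although the further probe set was called higher in MAPK3 (0.53, limma adjusted p = 0.00952). The difference between lines, SW620 minus SW480, passed in the same 5 knockdowns, at -0.68 ± 0.17 for CDK5 (adjusted p = 0.00317), -0.60 ± 0.17 for MAP2K1 (0.00948), -0.64 ± 0.17 for MAP2K2 (0.00609), -0.70 ± 0.17 for MAPK3 (0.00149) and -0.84 ± 0.17 for NGFR (5.62e-05), by limma. For HRAS it was -0.28 ± 0.17 (0.244). With the non-target hairpin alone as control, CDK5 (-0.46, limma adjusted p = 0.134) and MAP2K1 (-0.38, 0.268) did not pass. Nor did MAP2K2 (-0.41, 0.224) and MAPK3 (-0.47, 0.102). On the further probe set the line difference passed in NGFR alone (-0.73, 0.0161), and the other 4 lay between -0.42 and -0.23. The non-transduced arrays had MXD1 levels of 7.10, 7.02 and 8.10 in SW480 and 7.19, 7.35 and 8.15 in SW620 (replicates 1, 2 and 7). The vector controls of SW620 exceeded the non-transduced cells by 0.72 ± 0.19 (adjusted p = 0.0104), while in SW480 they differed by -0.28 ± 0.19 (0.948). With the non-target hairpin alone, the SW620 value was 0.56 (limma adjusted p = 0.0898). On the further probe set the differences were 0.79 (0.0591) in SW620 and 0.51 (0.879) in SW480. The remaining probe set gave 0.15 (0.766) in SW620. That gap of the SW620 vector controls moves with the SW620 comparisons above, and its part in them was not tested.

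MAX and MXD3 were each called in 2 of the 12 knockdowns, and MNT and MLX in 1 each. MAX, the obligate partner of MYC, was lower in CDK5 knockdown SW620 (arrays at 10.31, 10.19, 10.24, 10.23 and 10.16 against vector controls from 10.24 to 11.01), with a difference of -0.28 ± 0.10 (limma adjusted p = 0.0228). It was likewise lower in HRAS knockdown SW620 (lowest 10.13, median 10.23, highest 10.33), by -0.28 ± 0.09 (0.0111). Of these arrays, 3 of 5 and 4 of 6 lay below every vector control of the line. The fall was smaller in replicates 3 to 6 (-0.12 in CDK5 and -0.10 in HRAS) than in replicate 2 (-0.60 and -0.59), and the CDK5 call was kept in 13 of 20 alternative settings and the HRAS call in 18. The HRAS difference between lines was -0.36 ± 0.13 (adjusted p = 0.0313) and kept in 9 of 20. Other probe sets of MAX were not among the 20 settings. Of the 4 MAX calls, which include the vector controls of the 2 lines below, 3 were lost on the probe set of mean level 8.38. On those of mean level 7.11 and 6.59, 4 and 3 were lost. In MAP2K1 knockdown SW480 MAX did not pass (-0.25 ± 0.09, 0.0806), but it did without the degraded arrays (-0.25, 0.0309).

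MXD3, an antagonist that rises in the S phase of proliferating progenitors, was higher in CDK5 knockdown SW620 and MAPK3 knockdown SW480. The CDK5 arrays of SW620 had 7.89, 7.52, 7.63, 7.42 and 7.58, each above the vector controls of its own label series, and the difference was 0.30 ± 0.08 (limma adjusted p = 0.00415). MAPK3 knockdown SW480 ran from 7.56 over 7.74 to 8.33, also above its series' controls on 6 of 6 arrays, with 0.33 ± 0.08 (0.00171). On all arrays MXD3 did not pass in MAPK3 (0.15 ± 0.08, limma adjusted p = 0.123) or MAP2K2 (0.19 ± 0.08, 0.07) of SW620. Without the degraded arrays both passed, at 0.28 (0.000528) and 0.19 (0.0164). Without the SW480 arrays that stood apart, MAP2K2 passed too (0.19, 0.0425). The CDK5 difference between lines was 0.32 ± 0.11 (0.0411), and this call was kept in 11 of 20 alternative settings. With the replicate number as a block it was 0.32 with an adjusted p of 0.055, and with the empty vector alone 0.21 (0.291). Against the non-transduced cells, MXD3 in CDK5 knockdown SW620 was -0.10 ± 0.14 (limma adjusted p = 0.785).

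MNT, a repressor that is present in dividing and resting cells alike, was lower in CDK5 knockdown SW620, whose arrays had 7.53, 7.89, 7.87, 7.92 and 7.89. In replicates 3 to 6 these stood -0.65 from their controls and in replicate 2 -0.20, and the fitted difference was -0.52 ± 0.13 (limma adjusted p = 0.00127). The difference between lines was -0.60 ± 0.17 (0.0121). In MAPK3 knockdown SW620, MNT did not pass on all arrays (-0.18 ± 0.12, limma adjusted p = 0.273). Without the degraded arrays it was called lower (-0.42, 0.000748). The degraded replicate 2 array stood 1.14 above its controls there, and replicates 3 to 6 stood -0.46 from theirs. The MNT line difference for HRAS (-0.40 ± 0.17, 0.0857) passed without the degraded arrays (-0.40, 0.0204). The dimmer probe set of MNT gave 0.02 (adjusted p = 0.866) for CDK5 in SW620. MLX was higher in MAPK3 knockdown SW620 (lowest 9.15, median 9.19, highest 9.85), by 0.22 ± 0.08 (0.0357). Its highest array was the degraded replicate 2, and without the degraded arrays the value was 0.13 (0.241). Its dimmest probe set, of mean level 5.77, went the other way (-0.21, adjusted p = 0.027).

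The vector controls of the 2 lines differed in 5 of 7 members, where 48.6% of all genes were called. MYC was higher in SW620 by 0.71 ± 0.15 (limma adjusted p = 2.89e-05), MAX by 0.52 ± 0.07 (2.28e-09), MXD1 by 0.70 ± 0.10 (1.23e-09) and MXI1 by 0.55 ± 0.13 (0.00028), and MLX was lower (-0.33 ± 0.07, 2.22e-05). MXD3 (-0.13 ± 0.06, 0.0839) and MNT (0.16 ± 0.10, 0.179) did not pass, and without the degraded arrays MXD3 did (-0.13, 0.0264). For MXD1 the further probe set went the other way (-0.45, adjusted p = 0.0039), so its direction depends on the probe set. Between non-target hairpin and empty vector, limma called 0 of 7 members in each line, where 0.101% of all genes were called in SW480 and 0.00506% in SW620. The single member with an unadjusted limma p under 0.05 there was MXD1 in SW620 (-0.32 ± 0.14, unadjusted p = 0.0212). In SW480 the vector controls and the non-transduced cells differed in 0 of 7 members, with 0 unadjusted p under 0.05 and 0% of all genes called by limma. In SW620 MXD3 was lower in the vector controls than in non-transduced cells (-0.40 ± 0.12, adjusted p = 0.0352), which with MXI1 and MXD1 makes 3 of 7. With the replicate block the MXD3 value was -0.40 with an adjusted p of 0.0507.

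Counted as differences between lines, 15 of 42 member tests were called (35.7%), 1 higher and 14 lower. For all genes the shares were 15.6% (CDK5), 18.9% (HRAS), 11.5% (MAP2K1), 10.4% (MAP2K2), 17% (MAPK3) and 23.7% (NGFR), with a mean of 16.2%. The 5 members called for CDK5 were MYC, MXD1, MXD3, MXI1 and MNT. The difference for MAP2K2 was called in MXD1 alone among the members, and that for HRAS in MAX alone. This count fell to 0 without a term for the label series and to 5 to 7 when any of replicates 3 to 6 was left out.

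Targets of the network were followed through lists that were drawn up with earlier results of these data known. Among 7 genes that MYC is known to repress, SW620 had 5 or 6 called in each knockdown: THBS1, which codes for the antiangiogenic matrix protein thrombospondin 1, was higher in 6 of 6 by 1.92 to 4.11, while GADD45A (a DNA damage response gene), CDKN1A (the p21 inhibitor of cyclin-dependent kinases) and NDRG1 were lower in 6 of 6, by -1.29 to -0.73, -0.87 to -0.47 and -1.63 to -0.75. CDKN2B, the p15 inhibitor, was lower in 5. The median over the list was -0.87 to -0.47 in SW620, against -0.01 to 0.01 over all genes, and -0.12 to 0.61 in SW480. Of the list, 71.4% were called lower in HRAS and MAPK3 and 57.1% in the other knockdowns of SW620, and 14.3% higher in each. The share of all genes called lower in SW620 was 13.4% (CDK5), 16.8% (HRAS), 9.28% (MAP2K1), 12.7% (MAP2K2), 15.9% (MAPK3) and 13.4% (NGFR). The share called higher was 10.6% (CDK5), 14.2% (HRAS), 9.77% (MAP2K1), 10.5% (MAP2K2), 13.9% (MAPK3) and 12.9% (NGFR). In SW480 the leading gene was CDKN1B, the p27 inhibitor, higher in 4 of 6, CDK5 (0.79 ± 0.14), MAP2K1 (0.72 ± 0.14), MAPK3 (0.71 ± 0.14) and NGFR (1.29 ± 0.14). In these 4, 28.6%, 14.3%, 28.6% and 42.9% of the list were called higher, against 4.15%, 3.2%, 4.21% and 13.1% of all genes. In CDK5 14.3% of the list were lower.

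In SW620 these repressed genes, too, differed between the vector controls and the non-transduced cells, with 4 of 7 higher and 1 lower in the vector controls. CDKN2B was higher by 2.21 ± 0.47 (limma adjusted p = 0.00139), NDRG1 by 1.36 ± 0.42 (0.0391), GADD45A by 1.02 ± 0.27 (0.0131) and CDKN1B by 0.73 ± 0.23 (0.038), and THBS1 was lower (-1.60 ± 0.42, 0.0126). For CDKN2B, NDRG1, GADD45A and THBS1 the sign of this difference is the opposite of that in the knockdowns, and both share the vector control arrays. The part of the vector controls' own level in the knockdown differences was not tested.

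**Figure D4:**
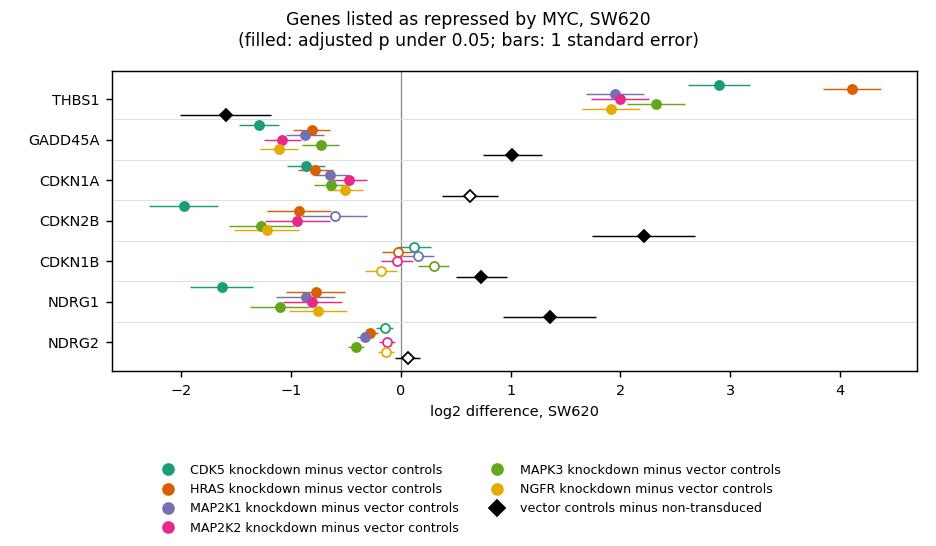
Log2 difference in SW620 of the 7 genes listed as repressed by MYC, as circles for each knockdown against the vector controls and as black diamonds for the vector controls against non-transduced cells, with bars of 1 standard error and filled markers for an adjusted p under 0.05. THBS1 lies between 1.92 and 4.11 in the knockdowns and at -1.60 in the diamonds, and CDKN2B, GADD45A and NDRG1 lie on the other side of 0 in each case.

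Of 30 genes that MYC is known to activate, 26 were measured. In SW620, 3 to 10 were called higher and 0 to 4 lower in each knockdown, with a list median of 0.06 to 0.25. The share called higher was 11.5% in CDK5 and in NGFR, near the 10.6% and 12.9% of all genes, and 38.5% in HRAS against 14.2%. It was 19.2% in MAP2K1 against 9.77%, 26.9% in MAP2K2 against 10.5% and 23.1% in MAPK3 against 13.9%. NCL, the nucleolar protein nucleolin, was higher in 6 of 6 by 0.22 to 0.38, and the mitochondrial chaperones HSPE1 (up to 0.57) and HSPD1 (up to 0.24) were higher in 5 each. In SW480, NGFR had 3 higher (11.5%) and 9 lower (34.6%) with a median of -0.20. Of all genes, 13.1% were called higher there and 24% in either direction. HRAS had 3 higher and 2 lower, and the other knockdowns of SW480 had at most 1 called. CCND2, a D-type cyclin, was lower in HRAS knockdown SW480 (-1.30 ± 0.26, limma adjusted p = 4.41e-05) and higher in MAP2K1 (1.36 ± 0.26, 0.000123). PPAT, an enzyme of purine synthesis, was lower in HRAS (-0.91 ± 0.12, 9.94e-10) and higher in NGFR (0.33 ± 0.12, 0.0274), and HSPD1 was lower in MAPK3 (-0.19 ± 0.05, 0.00266) and higher in NGFR (0.12 ± 0.05, 0.0422).

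Among 20 partners, corepressors and turnover factors of MYC, 19 were measured, and 2 to 6 were called higher and 1 to 3 lower in each knockdown of SW620. In CDK5 10.5% were higher and 10.5% lower, at or below the 10.6% and 13.4% of all genes, and in HRAS 31.6% were higher against 14.2%. AURKA, a mitotic kinase that shields MYC-family proteins from degradation, was higher in 6 of 6 by 0.72 to 1.22, and SKP2, an F-box protein of MYC turnover, in 5 with up to 1.26. HUWE1, a ubiquitin ligase that acts on MYC, was lower in 6 of 6 by -0.40 to -0.17, and it was the single gene of this list that differed between vector controls and non-transduced cells of SW620 (0.40 ± 0.10 higher in the vector controls, limma adjusted p = 0.00923). CIP2A, an inhibitor of the PP2A phosphatase that also stabilises MYC, was higher in 5, and SIN3B, a corepressor that MXD proteins recruit, was lower in 5. In SW480, 0 to 3 were called in each direction. In CDK5 15.8% were higher, against 4.15% of all genes. In NGFR 15.8% were higher and 15.8% lower, against 13.1% of all genes higher and 24% in either direction. RUVBL2, an ATPase that binds MYC, was called in 3 knockdowns (2 higher, 1 lower), FBXW7, the F-box protein that marks phosphorylated MYC, was higher in CDK5 (0.49 ± 0.13) and NGFR (1.02 ± 0.13), and HDAC2 was called in 2 (1 higher, 1 lower).

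In the extended family, MLXIPL was lower in 6 of 6 knockdowns of SW620, by -0.73 to -0.34, and in NGFR of SW480 (-0.38 ± 0.10, limma adjusted p = 0.00297). MYCL, a MYC paralog, was called in 4 knockdowns of SW480, lower in HRAS (-0.65 ± 0.12, 7.45e-06) and higher in MAP2K1 (0.81 ± 0.12), MAPK3 (0.53 ± 0.12) and NGFR (0.48 ± 0.12), and lower in HRAS and NGFR of SW620. MLXIP was higher in CDK5 of both lines, by 0.56 ± 0.09 in SW480 and 0.36 ± 0.10 in SW620, and lower in NGFR of SW480 (-0.34 ± 0.09). MGA, a large MAX partner, was lower in MAP2K1 (-0.28 ± 0.09) and MAPK3 (-0.27 ± 0.09) of SW480 and higher in HRAS of SW620 (0.33 ± 0.09). MYCN was called in 0 of 12, with differences from -0.19 to 0.03. TXNIP and ARRDC4 are arrestin-family targets of MLX and MondoA that restrain glucose uptake. Both were higher in NGFR knockdown SW480 (1.94 ± 0.44 and 1.62 ± 0.38) and both lower in HRAS knockdown SW620 (-1.53 ± 0.44 and -0.96 ± 0.38). ARRDC4 alone was also higher in MAPK3 of SW480, and TXNIP alone was lower in NGFR of SW620. The median of the pair for non-target hairpin minus empty vector in SW480 was -0.92, neither gene called, against 1.78 in NGFR knockdown SW480.

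As a description, each member's adjusted level over the 18 groups, taken relative to the mean of its line, was set against every other gene. The groups share control arrays and label series within a line, so no p is given. The 5 genes most like MYC were EIF3D (Pearson r = 0.91), EPB41L4A-AS1 (0.90), LETMD1 (0.87), NOB1 (0.86) and LINC02656 (0.85). For MXI1 they were R3HDM2 (0.92) and MOB3C (0.90), for MXD1 CSGALNACT2 (0.84) and PELI1 (0.82), for MAX GPRC5A (0.83) and S100A10 (0.82), for MXD3 PCYT2 (0.84) and SAPCD2 (0.81), for MNT MUSK (0.82) and ETS1 (0.81), and for MLX NKIRAS1 (0.89) and IKBIP (0.84). Among the members themselves, MYC and MXI1 had r = 0.64, MAX and MNT 0.67, and MXD1 stayed between -0.10 and 0.13 with each of the others.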

How the data were processed

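RNA from 101 samples of SW480 and SW620 was hybridised to Affymetrix arrays of 54675 probe sets. The deposited values are log2 levels made with RMA, per the submitters' processing notes; whether all arrays were normalised together is not given in the sources used here, and they were used without further normalisation. Gene symbols came from the platform table (41097 probe sets with 1 symbol, 41043 brought up to date from RefSeq, 1801 with several and 11777 with none left out). Each of 19775 genes was represented by its probe set of highest mean. Probe sets named _s_at or _x_at can bind related transcripts, and those used for MYC, MAX, MXD3 and MLX are of the former kind.

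One linear model over all arrays held the group and, within each line, the label series; it was fitted by lmFit of limma 3.58.1 (R 4.3.3) and moderated by eBayes, using its trend and robust options. The control of a knockdown was the average of empty vector and non-target hairpin in its line. P-values are two-sided and adjusted by Benjamini-Hochberg over genes in each comparison, with a threshold of 0.05. The code was tested on simulated data. Groups were taken from the titles. The arrays that the titles call replicate 7 carry another number in a further label field. The members and the gene lists were chosen with earlier results of these data known. Named list genes are the 3 called in the most knockdowns of a line, and further list genes named were chosen after their values were seen. No array duplicated another (highest correlation 0.9985). The number of arrays limits the precision.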

Additional observations from a re-analysis of the deposited data

Results flagged for a closer look

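Single arrays stood far from the others of their group in 28 of 112 tests of a member in a group of 5 or 6 arrays, judged by the gap to the nearest array over the range of the group. Chance flags about 1 in 20 groups. All 28 arrays belong to replicate 1 or 2, which form label series of their own. For MYC these were replicate 1 of HRAS knockdown SW620 (log2 level 11.42), MAP2K2 knockdown SW480 (12.15), MAP2K2 knockdown SW620 (12.20), MAPK3 knockdown SW480 (12.17) and NGFR knockdown SW620 (9.21). For MAX they were MAP2K2 knockdown SW620 replicate 2 (10.62), MAPK3 knockdown SW480 replicate 1 (9.45), MAPK3 knockdown SW620 replicate 2 (11.21) and NGFR knockdown SW620 replicate 1 (10.07). For MXD1 they were CDK5 knockdown SW620 replicate 2 (7.56), MAP2K2 knockdown SW620 replicate 1 (8.84), MAPK3 knockdown SW620 replicate 2 (8.64) and non-target hairpin SW620 replicate 1 (7.34).

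For MXD3 the arrays were MAP2K1 knockdown SW620 replicate 1 (7.89) and MAP2K2 knockdown SW480 replicate 2 (7.98). For MXI1 they were CDK5 knockdown SW620 replicate 2 (7.66), MAP2K1 knockdown SW480 replicate 2 (7.93), MAP2K2 knockdown SW480 replicate 2 (7.86), and replicate 1 of empty vector SW480 (9.28), non-target hairpin SW480 (8.13) and non-target hairpin SW620 (8.88). For MNT they were replicate 2 of CDK5 (7.53) and NGFR (7.38) knockdown SW620. For MLX they were CDK5 knockdown SW480 replicate 1 (9.08), MAP2K1 knockdown SW620 replicate 2 (9.70), MAP2K2 knockdown SW620 replicate 1 (8.68), MAPK3 knockdown SW480 replicate 1 (8.67) and MAPK3 knockdown SW620 replicate 2 (9.85).

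The knockdown difference itself differed between SW620 and SW480 in 15 of 42 tests (limma, adjusted p under 0.05), each given as SW620 minus SW480. For CDK5 these were MYC (-0.79), MXD1 (-0.68), MXD3 (0.32), MXI1 (-1.003) and MNT (-0.60). For HRAS it was MAX (-0.36), and for MAP2K2 it was MXD1 (-0.64). For MAP2K1 they were MXD1 (-0.60) and MXI1 (-0.71), for MAPK3 MYC (-0.83), MXD1 (-0.70) and MXI1 (-0.72), and for NGFR MYC (-0.75), MXD1 (-0.84) and MXI1 (-0.77).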

How the results depend on the processing

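Without a term for label series, the member calls were 0 of 42 in SW480, 9 in SW620, 0 for the differences between lines and 1 of 14 for vector controls against non-transduced cells. With arrays averaged in pairs by the endings of their source names they were 3, 8, 1 and 0. On replicates 3 to 6 alone they were 22, 30 and 33, with 4 of 14 for non-target hairpin against empty vector. The empty vector alone and the non-target hairpin alone as control each left 6 line differences, and a fit of only the groups compared gave 5 calls of vector controls against non-transduced cells. With 1 replicate left out, line differences ranged from 5 to 18, and vector controls against non-transduced cells from 1 to 4.

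The replicate block, in place of label series, gave 6, 14 and 14 calls, and 159 member results kept direction and side of the threshold while 2 did not. The MXD3 line difference for CDK5 became 0.32 (adjusted p = 0.055) and its vector controls minus non-transduced value in SW620 -0.40 (0.0507). Within replicates 3 to 6, arrays of the same number shared no deviation (median r -0.02 in SW480 and 0.00 in SW620), so the numbers were not taken to pair samples.

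Directions turned on replicates 3 to 6 alone in SW480 for MLX in HRAS (-0.071) and NGFR (-0.089), MYC in NGFR (0.20), MXI1 in NGFR (0.18) and MXI1 in non-target hairpin minus empty vector (0.15), in SW620 for MAX in NGFR (0.24), and in the line differences for MAX in CDK5 (0.15) and MAP2K2 (0.22) and MLX in HRAS (0.11). Other probe sets turned MAX in SW620 MAPK3 (-0.54 and -0.36), CDK5 (0.11) and the line contrast (-0.10), MLX in SW620 MAP2K1 (-0.20), MAPK3 (-0.21) and the line contrast (0.033), and MNT in SW620 CDK5 (0.024), its line difference (0.063) and vector controls minus non-transduced (-0.45). They turned MXD1 in the line contrast (-0.45 and -0.055), in SW480 CDK5 (-0.18), MAP2K1 (-0.094) and MAP2K2 (-0.026), and in the line differences for CDK5 (0.061) and MAP2K2 (0.047). Non-transduced cells as control, added after seeing the data, turned in SW620 MAX in CDK5 (0.060) and HRAS (0.062), MXD3 in CDK5 (-0.10), and MXI1 in HRAS (0.21), MAP2K1 (0.12), MAP2K2 (0.11), MAPK3 (0.065) and NGFR (0.16). The cause of these changes was not tested. No background level was estimated. Several of the other probe sets have mean levels of at most 5.77, against array medians of 5.05 to 5.28, which may limit what they measure. That does not hold for the MAX probe set of mean level 8.38 (-0.54 in SW620 MAPK3, limma adjusted p = 0.0437). Nor does it for the MXD1 probe set of mean level 7.65 (-0.45 in the line contrast, 0.0039).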
